A study of Mus musculus with 90 samples.

Results

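The 9 genes described here are Ciita and 8 genes of the MHC class II presentation pathway, namely Cd74, H2-Aa, H2-Ab1, H2-Eb1, H2-DMa, H2-DMb1, Ctss and Ifi30. They were chosen by symbol, with no threshold on their values but with earlier results of these data known, from 53697 gene rows of a table of raw counts. The study followed 2 mouse tumour cell lines, the melanoma line YUMM2.1 and the colon carcinoma line CT26, to ask how short and long exposure to the cytokine interferon γ (IFNγ) differ in the transcripts they change. Each line had 15 groups of 3 samples, and RNA was counted from the 3′ ends of transcripts. Control cultures received bovine serum albumin (BSA) in place of IFNγ and were harvested at 0, 1, 2 and 3 weeks. Cells not exposed before, called naive here, were given IFNγ at 50 IU/mL for 2 h or 24 h. The remaining groups were kept in IFNγ at the same dose for 1, 2 or 3 weeks and were harvested either without rechallenge or following 2 h or 24 h of rechallenge with newly added IFNγ. Both lines grew as cultures in the same medium with serum, without a host or added immune cells, so presentation to T cells was not part of the experiment.

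Class II molecules carry peptides from the endosomal route to helper T cells and are made constitutively mainly by professional antigen-presenting cells. Other cell types can be brought to make them by IFNγ, which acts through IRF1 on an inducible promoter of Ciita. The CIITA protein does not bind DNA itself, but is recruited by factors (RFX, CREB and NF-Y) that sit on paired elements, the X and Y boxes, in front of the genes for class II chains, the invariant chain and the peptide exchange factor DM. H2-Aa and H2-Ab1 encode the α and β chains of the I-A molecule, H2-Eb1 the β chain of I-E, and Cd74 the invariant chain that fills the peptide groove during transport. H2-DMa and H2-DMb1 encode the 2 chains of H2-DM, which exchanges peptides, Ctss encodes the protease cathepsin S, which trims the invariant chain, and Ifi30 encodes GILT, a lysosomal reductase that unfolds antigens with disulphide bonds.

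The genes lie on several chromosomes in the GRCm38 assembly, with H2-Aa (chr17:34282744-34287823, minus strand), H2-Ab1 (chr17:34257689-34269419), H2-Eb1 (chr17:34305867-34316674), H2-DMa (chr17:34119541-34139101) and H2-DMb1 (chr17:34153072-34160230) together in the histocompatibility region. Ciita lies at chr16:10480059-10528418, Ctss at chr3:95526786-95556403 and Ifi30 on the minus strand of chr8:70762774-70766663. H2-DMa overlaps 4 annotated genes, Brd2 among them, H2-Eb1 overlaps the antisense gene Gm20513, and Ciita overlaps Dexi on the opposite strand. Whether strand was used in counting is not given in the sources used here, so reads in those overlaps cannot be assigned with certainty.

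RefSeq promoter windows of the GRCm38.p6 assembly were found for 6 of the 9 genes, and 4 are printed. Of these, 3 hold paired elements and that of Ifi30 holds none of the elements. The window of Ctss, not printed, holds none of them either. H2-DMa held no pair in its windows and was called higher at 3 weeks. Its windows lie inside its annotated span (chr17:34119541-34139101), and the start of that span was not read. Whether elements and responses go together was not tested. Each line below holds the 150 bases before the RefSeq start, 5′ to 3′ on the gene's own strand. Capitals mark the X box letters, the shorter RFX core or the Y box.
H2-Aa: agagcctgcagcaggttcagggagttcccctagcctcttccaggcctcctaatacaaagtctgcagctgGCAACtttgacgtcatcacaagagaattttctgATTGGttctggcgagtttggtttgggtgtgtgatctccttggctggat
H2-Eb1: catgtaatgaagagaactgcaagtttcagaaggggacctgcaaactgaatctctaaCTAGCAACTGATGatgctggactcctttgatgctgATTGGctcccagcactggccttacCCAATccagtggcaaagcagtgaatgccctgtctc
H2-DMb1: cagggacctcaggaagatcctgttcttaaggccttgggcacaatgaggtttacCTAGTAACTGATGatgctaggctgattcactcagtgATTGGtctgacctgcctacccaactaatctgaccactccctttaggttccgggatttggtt
Ifi30: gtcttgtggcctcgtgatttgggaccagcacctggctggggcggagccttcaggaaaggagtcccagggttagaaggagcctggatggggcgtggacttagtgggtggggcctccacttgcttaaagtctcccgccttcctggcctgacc
They were read from chr17:34287824-34287973 on the minus strand for H2-Aa, chr17:34305717-34305866 on the plus strand for H2-Eb1, chr17:34153041-34153190 on the plus strand for H2-DMb1 and chr8:70766664-70766813 on the minus strand for Ifi30. The letters searched were CTAG, any 2 bases, AC, any 3 bases and TG for the X box, GCAAC for the RFX core, which can lie inside an X box, and ATTGG for the Y box, on both strands of the 250 bases before the start.

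Positions are counted from the RefSeq start of each window. H2-DMb1 held the X box letters at position -97 and the Y box at -61. Its printed window (chr17:34153041-34153190) runs past the start of its annotated span (chr17:34153072-34160230), and both elements lie inside that span. H2-Eb1 held them at -94 and -59, with the RFX core inside the X box letters, and a further Y box at -35 on the other strand. H2-Aa had no match to the longer X box letters and held the RFX core at -81 with a Y box at -48. Among 32851 RefSeq promoters, 0.493% held the X box letters, 29.9% the RFX core and 33.8% the Y box. An X box followed by a Y box on the same strand, with starts 20 to 50 bases apart, was found in 7 promoters (0.0213%), and the RFX core followed by a Y box at that distance in 197 (0.6%). The window of Ifi30 held none of the 3 elements, and its only match among the motifs searched was an E box (CACGTG, in 6.02% of promoters) at -196. The window of Ctss held only the core of the interferon-stimulated element (GAAA, any 2 bases and GAAA, in 2.98% of promoters), at -21. Of the 2 windows for H2-DMa, one held only the RFX core on the other strand, at -7, and the other only a Y box, at -198. A match describes letters in a window, and binding was not measured.

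Depth limits what can be said of these genes. A YUMM2.1 sample held between 274719 and 3161276 counts (median 1403265), and a CT26 sample between 295157 and 2205285 (median 1318011). Of the samples without rechallenge, 3 held less than 25% of their line's median, namely replicate 3 of YUMM2.1 at 3 weeks and replicate 3 of CT26 at 1 and at 3 weeks. The filter on low counts was passed by 4 of the 9 genes in YUMM2.1 (H2-Aa, H2-Eb1, H2-DMa and H2-DMb1) and by 1 in CT26 (Ifi30). The others are given as raw counts and as counts divided by the sample's total and multiplied by 1000000 (CPM), with exact 95% Poisson intervals for pooled samples, which cover counting error only. The limit for a count of 0 was taken as 3 counts over the group. Folds given as at least divide a pooled level by that limit and leave out the counting error of the level. These cultures are bulk samples, in which a smaller share of expressing cells and less RNA per cell cannot be told apart.

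The labelled lines were checked against markers. The number of markers with any count did not separate them, since YUMM2.1 had counts for 6 of 7 melanocyte and 5 of 8 epithelial genes, and CT26 for 5 and 4. Their summed levels separated the controls. In controls the melanocyte genes summed to a median of 27.0 CPM in YUMM2.1, against 4.44 CPM for CT26. The epithelial genes summed to medians of 0.158 and 67.2 CPM in the same order, and the controls of the lines did not overlap in either sum. With IFNγ the epithelial sums stayed apart. The melanocyte sums then overlapped, from 15.6 CPM in YUMM2.1 and up to 16.9 CPM in CT26. Tyrp1 was at 0 in YUMM2.1, and Cdh1, Epcam, Krt19 and Vil1 were at 0 in CT26. Markers of blood and antigen-presenting cells had counts for 7 of 13 genes in each line. Their summed level was 0.433 to 7.08 CPM in YUMM2.1 controls (median 2.74) and 0 to 10.1 CPM in YUMM2.1 with IFNγ (median 3.72), and in CT26 it was 0 to 3.55 CPM (median 2.71) and 0 to 6.07 CPM (median 2.52). The macrophage gene Adgre1, the dendritic cell gene Itgax, the T cell gene Cd3e, and Tyrobp were at 0 in all 90 samples.

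In YUMM2.1, transcripts of the class II pathway were at a few counts in controls and in naive cells given IFNγ for up to 24 h, and were present in cells kept in IFNγ for 1 week or longer. The summed level of the 6 genes Cd74, H2-Aa, H2-Ab1, H2-Eb1, H2-DMa and H2-DMb1 was 3.47 ± 2.82 CPM (SD, n = 3) in the 0-week controls and 5.10 ± 1.04 CPM after 24 h in naive cells. It was 23.1 ± 10.4 CPM at 1 week, 39.6 ± 7.58 CPM at 2 weeks and 34.5 ± 5.57 CPM at 3 weeks without rechallenge. The controls of those weeks stood at 2.64 ± 1.20, 3.08 ± 1.44 and 1.03 ± 1.10 CPM. In CT26 the same sum had group means from 0 to 3.43 CPM. The CT26 sum was highest at 3 weeks without rechallenge (3.43 ± 3.02 CPM), where the shallow replicate 3 takes part and no sample held more than 2 counts.

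**Figure D1:**
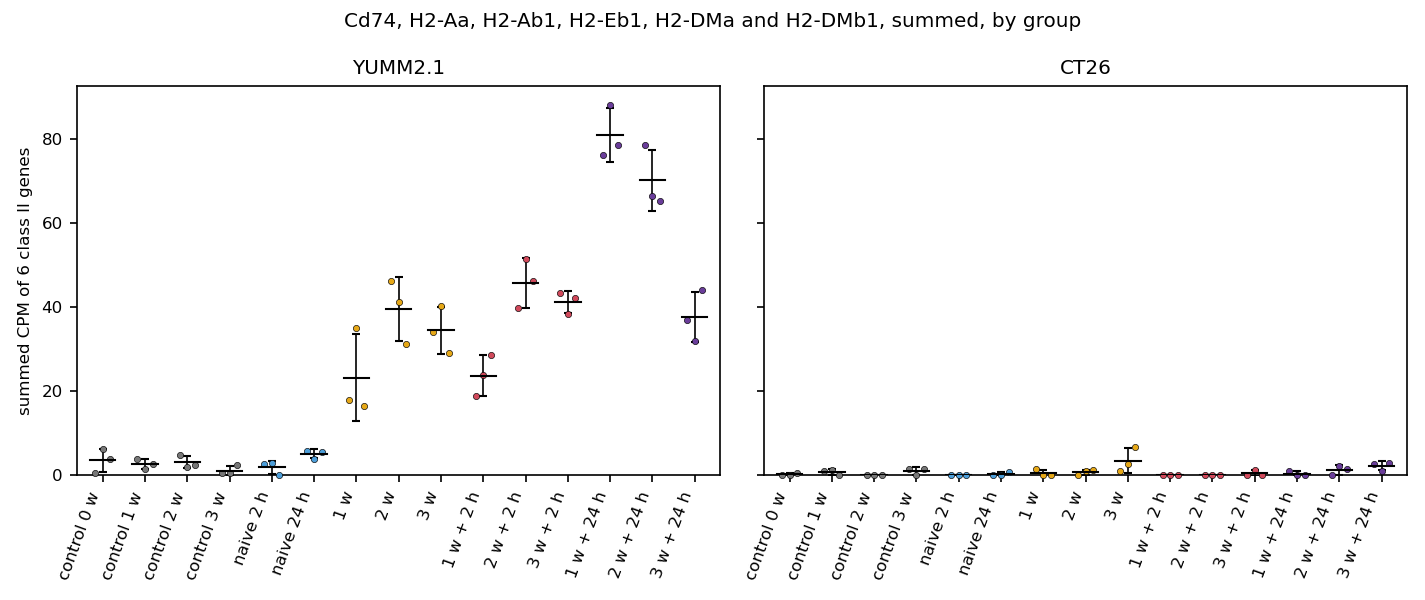
Summed CPM of Cd74, H2-Aa, H2-Ab1, H2-Eb1, H2-DMa and H2-DMb1 in the 15 groups of each line, with 1 point per sample and bars for the mean ± SD of 3 samples. In YUMM2.1 the groups kept in IFNγ for 1 to 3 weeks lie above all controls and naive groups and reach 88.2 CPM after 24 h rechallenge at 1 week, while the CT26 group means stay between 0 and 3.43 CPM.

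Ciita, the transactivator, had no count in any of the 12 controls and 6 naive samples of YUMM2.1. Pooled, those zeros allow a level of up to 0.125 CPM in controls, 0.586 CPM in naive cells after 2 h and 0.711 CPM in naive cells after 24 h. Without rechallenge, the 3 replicates had 2, 1 and 0 counts at 1 week, 0, 0 and 0 at 2 weeks, and 1, 0 and 0 at 3 weeks. The transcript was thus near its limit of detection in cells under sustained IFNγ too, at a pooled level of 0.334 CPM (0.0909 to 0.855).

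Ciita counts were higher 2 h after rechallenge. The replicates had 10, 5 and 0 counts at 1 week, 4, 2 and 0 at 2 weeks, and 4, 13 and 7 at 3 weeks, the last corresponding to 2.90, 9.97 and 4.99 CPM. All 3 samples at 3 weeks lay above the samples without rechallenge, whereas replicate 3 held no count at 1 and 2 weeks. Pooled over weeks, Ciita stood at 3.52 CPM (2.57 to 4.71) 2 h after rechallenge, with counts in 7 of 9 samples, which was 10.5 times the level without rechallenge (interval 3.84 to 40.4). It was at least 6.00-fold higher than in naive cells 2 h after their first IFNγ. In an edgeR fit without the low-count filter, the mean difference over the 3 weeks passed the test (adjusted p = 0.0092), where 1.11% of 27231 genes were called. Leaving out replicate 3 of every group kept the call (adjusted p = 0.028), and it was lost without replicate 1 (0.18) or replicate 2 (0.34). In the single weeks the adjusted p was 0.88, 1.0 and 0.33, beside 0.499%, 0.297% and 0.621% of genes called.

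At 24 h after rechallenge, Ciita had 1, 4 and 4 counts at 1 week, 0, 1 and 4 at 2 weeks, and 0, 0 and 2 at 3 weeks. The pooled level was 1.35 CPM (0.774 to 2.20), with counts in 6 of 9 samples, 4.06 times that without rechallenge (1.31 to 16.7). The mean difference without the filter did not pass the test (adjusted p = 0.86, beside 0.591% of genes called). Ordered by level, the group at 3 weeks with 2 h rechallenge came first (5.39 ± 2.80 CPM on the scale of TMM-adjusted library sizes) and the group at 1 week with 2 h rechallenge (2.56 ± 2.38 CPM) next, with samples of the groups overlapping.

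**Figure D2:**
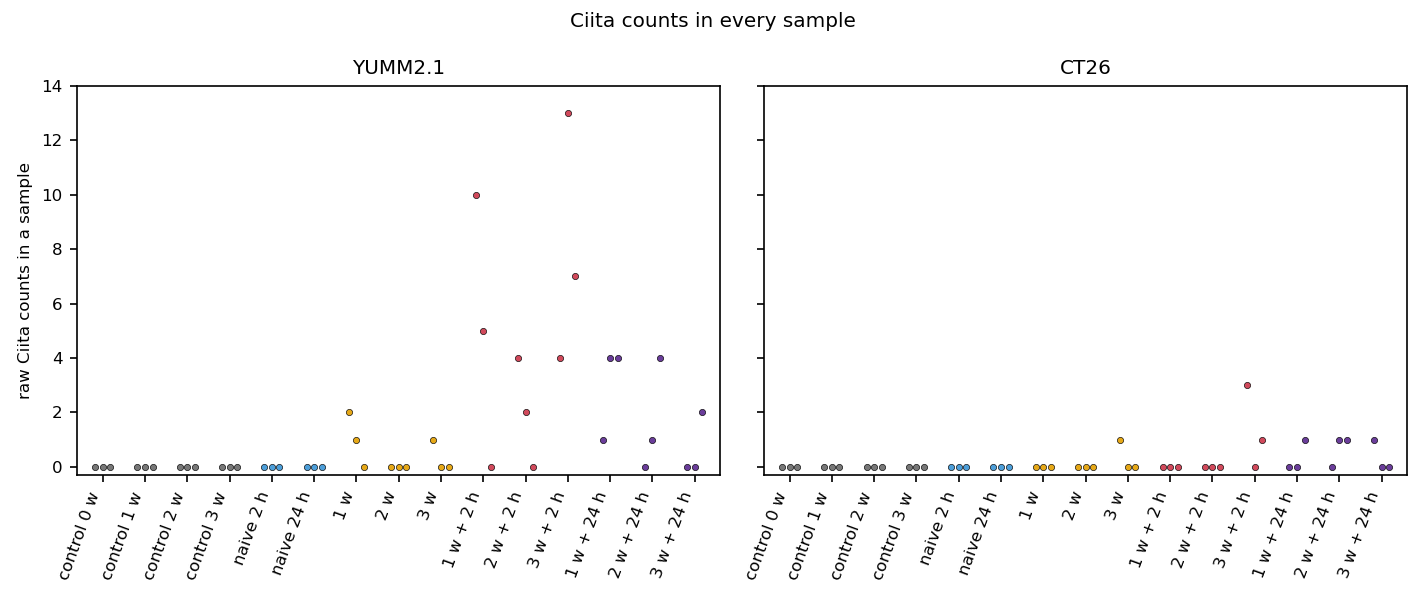
Raw counts of Ciita in every sample of the 15 groups of each line, 1 point per sample. In YUMM2.1 the controls and naive groups are at 0 and the highest value, 13 counts, is at 3 weeks with 2 h rechallenge, while no CT26 sample exceeds 3 counts.

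The chain genes of I-A and I-E and the invariant chain gene were at or near 0 before 1 week of IFNγ. H2-Aa had no count in the 12 controls of YUMM2.1 and 1 count in the 6 naive samples. Without rechallenge it had 5, 11 and 1 counts at 1 week, 16, 5 and 7 at 2 weeks, and 9, 3 and 0 at 3 weeks, where the sample at 0 is the shallow one. All samples at 1 and 2 weeks lay above all controls of the same week. H2-Aa passed the edgeR test in each week, with adjusted p = 0.0040 at 1 week, 0.0082 at 2 weeks and 0.0074 at 3 weeks. Pooled, its 57 counts against 0 in the controls of 1 to 3 weeks made it at least 31.2-fold higher.

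H2-Eb1, the β chain of I-E, had 4 counts in all over the 12 controls and 1 count in the naive samples. Without rechallenge it had 3, 12 and 1 counts at 1 week, 7, 9 and 16 at 2 weeks, and 15, 2 and 0 at 3 weeks. At 3 weeks replicate 1 lay far above the others, and the shallow replicate 3 fell within the range of the controls. It passed at 1 week (adjusted p = 0.016) and at 3 weeks (log2 fold change 4.62, SE 1.09, adjusted p = 0.019), and at 2 weeks its log2 difference of 3.33 (SE 1.01) had an adjusted p of 0.13. The pooled ratio to controls was 35.5 (11.6 to 177).

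H2-Ab1, the β chain of I-A, and Cd74, at chr18:60803848-60812652, did not pass the filter. H2-Ab1 had no count in the controls or naive samples and 4, 0 and 0 counts at 1 week, 2, 4 and 2 at 2 weeks, and 2, 6 and 0 at 3 weeks without rechallenge. Cd74 had none in the controls, 1 in the naive samples, and 3, 2 and 0 counts at 1 week, 3, 2 and 4 at 2 weeks, and 1, 0 and 3 at 3 weeks. Both genes separated from the controls in every sample only at 2 weeks. Against the pooled controls of 1 to 3 weeks, H2-Ab1 was at least 10.9-fold and Cd74 at least 9.84-fold higher. In the unfiltered fit their means over the 3 weeks passed the test (adjusted p = 0.00021 for H2-Ab1 and 0.00056 for Cd74, where 1.36% of genes were called). The call for Cd74 was lost without replicate 3 of every group (adjusted p = 0.22) and without the shallow sample (0.063), and that for H2-Ab1 without replicate 2 (0.052) or replicate 1, which left a group at 0 throughout.

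The genes for H2-DM had counts in untreated cells. H2-DMb1 had 1, 3 and 4 counts in the 0-week controls, 5, 3 and 6 at 1 week, 5, 0 and 2 at 2 weeks, and 0, 1 and 4 at 3 weeks. Under sustained IFNγ it had 14, 26 and 6 counts at 1 week (7.12, 13.8 and 12.4 CPM), 33, 21 and 23 at 2 weeks (21.2, 19.2 and 10.7 CPM) and 24, 16 and 4 at 3 weeks (14.8, 16.5 and 14.6 CPM). On the CPM scale every treated sample lay above every control of its week, and the shallow sample at 3 weeks was level with its replicates. H2-DMb1 rose by 2.54 log2 units at 1 week (SE 0.50, adjusted p = 0.0017), 2.99 at 2 weeks (SE 0.55, adjusted p = 0.00041) and 4.39 at 3 weeks (SE 0.59, adjusted p = 9.07e-07). The 3-week controls were themselves lower than the 0-week controls by 1.49 log2 units (SE 0.82), which did not pass the test (adjusted p = 0.67, with 0.511% of genes called and 0 of the 4 class II genes). None of the 4 had an unadjusted p under 0.05 by edgeR or DESeq2, and DESeq2 gave them no adjusted p.

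H2-DMa, the partner chain, had 0 to 4 counts in each of the 12 controls. It had 6, 15 and 0 counts at 1 week, 11, 4 and 15 at 2 weeks, and 4, 12 and 1 at 3 weeks without rechallenge. Treated samples lay above their controls on the CPM scale at 2 and 3 weeks, and at 1 week replicate 3 had no count. H2-DMa passed the test at 3 weeks (log2 fold change 3.75, SE 0.92, adjusted p = 0.025) but not at 1 week (2.23, SE 0.79, adjusted p = 0.42) or 2 weeks (3.23, SE 0.98, adjusted p = 0.13). Its pooled ratio to controls was 9.29 (4.99 to 18.9).

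Of the 4 genes tested in YUMM2.1, 3 were called at 1 week, 2 at 2 weeks and 4 at 3 weeks, all of them higher, beside 0.73%, 1.12% and 0.97% of the 9589 genes tested. No control held more than 6 counts of any of them, so they passed the filter, with its minimum of 10, through groups given IFNγ, and these shares are a description of the genes that passed. Averaged over the 3 weeks, all 4 were called, beside 2.95% of genes, with H2-DMb1 higher by 3.31 log2 units (SE 0.32, adjusted p = 3.93e-11), H2-DMa by 3.07 (SE 0.52, adjusted p = 5.51e-05), H2-Aa with an adjusted p of 2.51e-07 and H2-Eb1 with 3.99e-06. The call for H2-DMa was lost without replicate 2 of every group (adjusted p = 0.18) and against the 0-week controls (0.053). With replicate 1, 2 or 3 of every group left out, the 9 calls over single weeks became 3, 1 and 4.

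**Figure D3:**
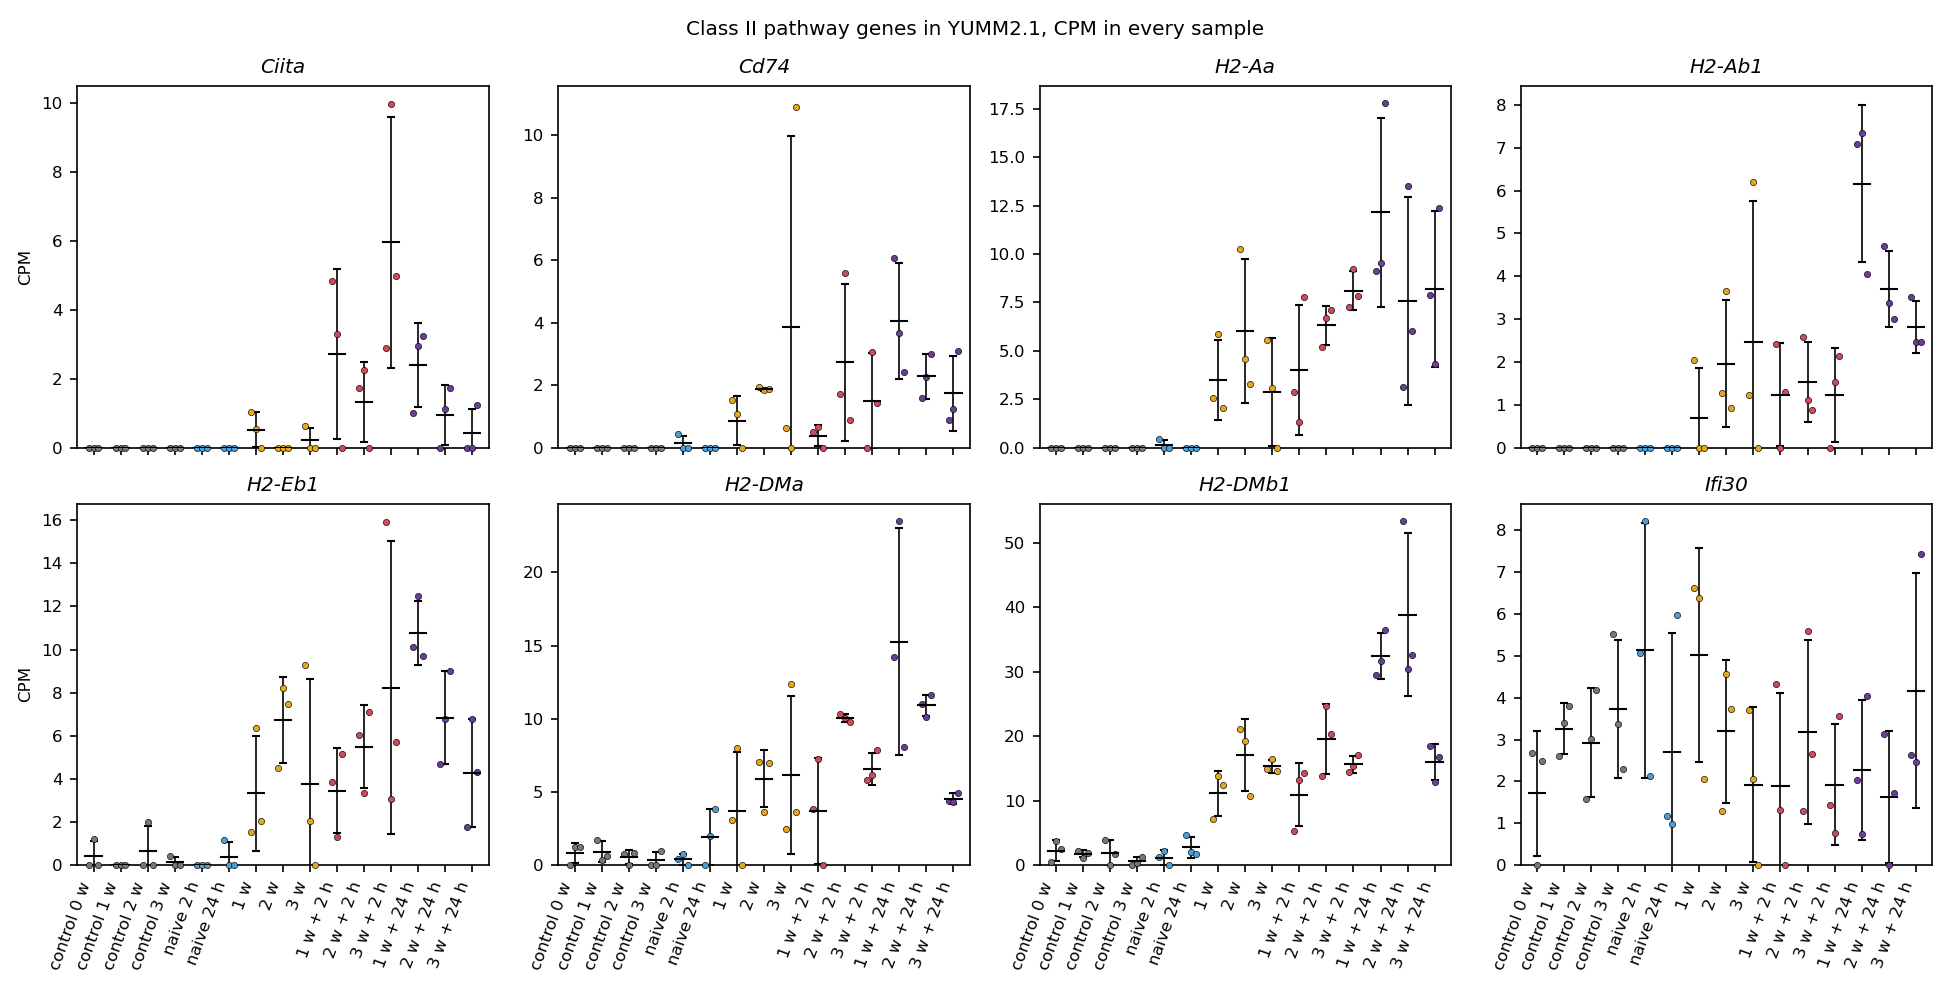
CPM of 8 class II pathway genes in YUMM2.1, each panel with its own axis, 1 point per sample and bars for the mean ± SD of 3 samples in each of 15 groups. Ciita peaks in the groups with 2 h rechallenge, the chain and DM genes are higher in groups with 1 week or more of IFNγ, and Ifi30 shows no such pattern.

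Ctss and Ifi30 did not pass the filter in YUMM2.1. Ctss had no count in any of the 45 YUMM2.1 samples, which allows a level of up to 0.0429 CPM. Ifi30 in YUMM2.1 had 5, 0 and 4 counts in the 0-week controls, 6, 9 and 12 at 1 week, 2, 3 and 5 at 2 weeks and 13, 9 and 7 at 3 weeks. Under sustained IFNγ it had 13, 12 and 1 counts at 1 week, 2, 5 and 8 at 2 weeks, and 6, 2 and 0 at 3 weeks. The ranges overlapped in each week, and the pooled ratio to controls was 1.22 (0.824 to 1.79). In the unfiltered fit its mean log2 difference over the 3 weeks was 0.08 (SE 0.42, adjusted p = 0.99985).

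Short exposure was compared next. In naive YUMM2.1 cells, 0 of the 4 tested genes were called after 2 h, beside 0.24% of genes, or after 24 h, beside 0.886%. None had an unadjusted p under 0.05, and DESeq2 called 0 of the 1 and 4 genes to which it gave an adjusted p. H2-DMb1 had 4, 2 and 4 counts after 24 h (4.66, 1.96 and 1.71 CPM), a pooled ratio to the 0-week controls of 1.27 (0.452 to 3.71). H2-DMa had 0, 2 and 9 counts after 24 h, so that replicate 3 held 9 of the 11 counts, and the pooled ratio was 3.73 (0.985 to 20.8).

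After the same 24 h of IFNγ, levels differed in cells that had been kept in it before. This comparison joins 1 to 3 weeks of earlier exposure with the 24 h rechallenge and cannot tell them apart. After 24 h rechallenge at 1 week, H2-Aa had 9, 13 and 22 counts, at 2 weeks 2, 12 and 14, and at 3 weeks 9, 7 and 20, against 0, 0 and 0 in naive cells after 24 h. It was at least 12.9-fold higher over the 3 weeks pooled. H2-Eb1 had 10, 17 and 12, then 3, 6 and 21, then 2, 11 and 7 counts in those weeks, against 1, 0 and 0 in naive cells, and its pooled ratio of 31.8 (5.56 to 1270) rests on that single count. H2-DMb1 had 29, 43 and 45, then 34, 27 and 76, then 21, 21 and 27 counts, and stood 11.5 times higher (6.20 to 24.3) than in naive cells. H2-DMa stood 3.87 times higher (2.08 to 7.95).

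Against naive cells after 24 h, the 3-week cells with 24 h rechallenge had 2 of 4 genes called, beside 0.813% of genes, namely H2-Aa (adjusted p = 0.0021) and H2-DMb1 (log2 fold change 2.63, SE 0.52, adjusted p = 0.0025). H2-Eb1 (adjusted p = 0.17) and H2-DMa (log2 difference 0.87, SE 0.76, adjusted p = 0.83) did not pass. The call for H2-Aa was lost without replicate 1 (0.12) or 3 (0.13) and that for H2-DMb1 without replicate 2 (0.065) or 3 (0.15). The 1-week cells had 4 of 4 called, beside 0.834% of genes, with H2-DMb1 higher by 3.69 log2 units (SE 0.49, adjusted p = 2.11e-06) and H2-DMa by 2.66 (SE 0.68, adjusted p = 0.043). For H2-Aa in that comparison the adjusted p was 0.00026 and for H2-Eb1 0.0067. The call for H2-DMa was lost with the replicate number as a block (0.059) and without replicate 1 (0.66) or 2 (0.57), that for H2-Eb1 without replicate 2 (0.10) or 3 (0.19), and that for H2-Aa without replicate 3 (0.063). In both comparisons DESeq2 gave no adjusted p for the 4 genes, which its own filter on mean counts removed, and 3 and 4 of them had an unadjusted p under 0.05.

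At 2 h the comparison of 3-week cells with naive cells had 4 of 4 genes called, beside 8.12% of genes. H2-DMb1 was higher by 3.53 log2 units (SE 0.57, adjusted p = 2.48e-05) and H2-DMa by 3.71 (SE 0.95, adjusted p = 0.011). The call for H2-DMa was lost without replicate 1 (0.15), 2 (0.057) or 3 (0.068), and that for H2-Eb1 without replicate 1 (0.13). Ciita, tested without the filter, passed as well (adjusted p = 0.0056, beside 2.59% of genes), and its call was lost without replicate 1 (0.11) or replicate 2 (0.20).

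Rechallenge itself was then set against no rechallenge in the same week. The 2 h rechallenge gave 0 calls among the 4 tested genes in each of the 3 weeks, beside 0.615%, 0.428% and 1.08% of genes. None of them had an unadjusted p under 0.05, and DESeq2 called 0 of those to which it gave an adjusted p (1 of 4 at 1 week and all 4 at 2 and 3 weeks). H2-DMb1 had 11, 20 and 11 counts at 1 week, 32, 22 and 23 at 2 weeks and 20, 20 and 24 at 3 weeks, with a pooled ratio of 1.03 (0.828 to 1.27) to the cells without rechallenge. The ratio was 1.20 (0.837 to 1.73) for H2-Aa, 1.05 (0.743 to 1.49) for H2-Eb1, 1.24 (0.895 to 1.73) for H2-DMa, 0.890 (0.450 to 1.76) for H2-Ab1 and 0.937 (0.460 to 1.91) for Cd74. The interval for each of these 6 genes included no difference, whereas that for Ciita, 3.84 to 40.4, and that for Ifi30, at a ratio of 0.574 (0.352 to 0.922), did not. In single weeks H2-DMa did not overlap at 2 weeks (9.74 to 10.4 CPM against 3.66 to 7.06), nor did H2-Aa at 3 weeks (7.24 to 9.21 CPM against 0 to 5.56, the sample at 0 being the shallow one).

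At 24 h after rechallenge at 1 week, Cd74, H2-Aa, H2-Ab1, H2-Eb1, H2-DMa and H2-DMb1 lay above the cells without rechallenge in every sample on the CPM scale. Their summed level was 76.1 to 88.2 CPM, against 16.5 to 35.1 CPM without rechallenge. H2-DMb1 (29.4, 31.6 and 36.4 CPM) rose by 1.55 log2 units (SE 0.39, adjusted p = 0.025) and was the 1 gene of 4 called, beside 1.42% of genes, while all 4 had an unadjusted p under 0.05. At 2 weeks its levels of 53.4, 30.4 and 32.7 CPM again did not overlap those without rechallenge, but the log2 difference of 1.18 (SE 0.37) did not pass (adjusted p = 0.22), and 0 of 4 genes were called, beside 0.615%. DESeq2 also called 0 at 2 weeks, and 1 gene had an unadjusted p under 0.05.

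At 3 weeks the 24 h rechallenge gave no call. H2-DMb1 stood at 18.4, 12.9 and 16.7 CPM, a log2 difference of 0.05 (SE 0.42). H2-Aa differed more, at 4.31 to 12.4 CPM against 0 to 5.56 CPM (log2 difference 1.05, SE 0.68), with overlapping samples. H2-DMa was lower by 0.46 (SE 0.72) and H2-Eb1 by 0.23 (SE 0.75), both inside their error, and the summed level was 37.6 ± 6.01 CPM, against 34.5 ± 5.57 CPM without rechallenge. None of the 4 genes was called by edgeR or DESeq2 and none had an unadjusted p under 0.05. In that comparison 0% of 9589 genes were called by edgeR, with 349 at an unadjusted p under 0.05, and DESeq2 called 1. Tested directly, the rechallenge response at 3 weeks minus that at 1 week was -1.50 log2 units for H2-DMb1 (SE 0.58, adjusted p = 0.47) and -2.18 for H2-DMa (SE 0.96, adjusted p = 0.64). It was called for 0 of 4 genes, beside 0.542% of all genes, with 2 of the 4 at an unadjusted p under 0.05 and 0 called by DESeq2, which gave 1 of them an adjusted p, so the weeks are not shown to differ.

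Averaged over the weeks, the 24 h rechallenge raised H2-DMb1 by 0.92 log2 units (SE 0.23, adjusted p = 0.021), the 1 gene of 4 called beside 1.07% of all genes. This call was lost without replicate 1 (0.37), 2 (0.067) or 3 (0.21), as was that at 1 week (0.40, 0.12 and 0.17). The pooled ratio of 24 h rechallenge to none was 1.96 (1.62 to 2.38) for H2-DMb1, 1.92 (1.38 to 2.70) for H2-Aa, 2.38 (1.39 to 4.25) for H2-Ab1 and 1.78 (1.31 to 2.43) for H2-DMa. It was 1.39 (0.998 to 1.94) for H2-Eb1, 1.80 (0.982 to 3.41) for Cd74 and 0.683 (0.426 to 1.08) for Ifi30. These intervals count molecules or reads and leave out the spread between samples.

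Ordered by level, H2-DMb1 in YUMM2.1 fell into 3 runs of groups. On the scale of TMM-adjusted library sizes, the groups with 24 h rechallenge at 2 weeks (39.0 ± 11.7 CPM) and 1 week (32.2 ± 2.29 CPM) came first and did not differ beyond their spread. The 7 other groups with 1 week or more of IFNγ followed, from 20.3 ± 5.33 CPM at 2 weeks with 2 h rechallenge to 10.3 ± 4.59 CPM at 1 week with 2 h rechallenge, with neighbours inside their spread. The naive and control groups came last, from 2.73 ± 1.51 CPM in naive cells after 24 h to 0.585 CPM in the 3-week controls.

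In CT26 the class II genes stayed at a few counts whatever the exposure. Ciita had 9 counts in 7 of the 45 samples, all of them with 1 week or more of IFNγ. These were 3, 0 and 1 counts at 3 weeks with 2 h rechallenge, 0, 1 and 1 at 2 weeks with 24 h, and 1 count each at 1 week with 24 h, at 3 weeks without rechallenge and at 3 weeks with 24 h. It had none in the 12 controls, which allows up to 0.166 CPM, or in the 6 naive samples, which allows up to 0.419 CPM. Over the 27 samples with 1 week or more of IFNγ, its level was 0.288 CPM (0.132 to 0.546). The low end of that interval lies below both limits, so a higher level than in controls or naive cells is not shown.

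Of the chain genes in CT26, H2-Ab1 had no count in 45 samples, a limit of 0.0531 CPM. H2-Aa had 2 counts in all, H2-Eb1 2, Cd74 3 and H2-DMb1 3. H2-DMa had 23, of which 9 were in controls, and Ctss 7, of which 1 was in a control. None of these passed the filter.

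Ifi30 was the exception in CT26, with 853 counts and at least 2 in every sample. In the 0-week controls it stood at 7.54, 15.7 and 17.9 CPM and in naive cells after 24 h at 3.85, 21.0 and 17.2 CPM, so the groups overlapped. It was at 20.02, 16.7 and 27.9 CPM after 1 week without rechallenge, 13.9, 13.9 and 16.7 CPM after 2 weeks and 13.9, 18.1 and 10.2 CPM after 3 weeks. The 1-week controls ranged from 13.99 to 18 CPM and the 2-week controls from 7.39 to 10.4 CPM, and the 3-week controls from 15.6 to 21.2 CPM. Treated samples thus lay above their controls at 2 weeks only.

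No comparison in CT26 called Ifi30. The share of the 8516 genes called was 0.235% after 2 h and 2.04% after 24 h in naive cells, and 0.728%, 1.62% and 7.28% after 1, 2 and 3 weeks without rechallenge. It was 0.376%, 0.305% and 0.0117% for the 2 h rechallenge in those weeks, and 1.32%, 0.658% and 0% for the 24 h rechallenge, the last with 442 genes at an unadjusted p under 0.05 and 0 called by DESeq2. Between 3-week and naive cells at 24 h it was 2.48%, and between the 3-week and 0-week controls 0.904%. For Ifi30, the mean log2 difference under sustained IFNγ was 0.08 (SE 0.19, adjusted p = 0.85), beside 8.15% of genes called, and the pooled level was 16.5 CPM (13.9 to 19.4), against 15.2 CPM (13.4 to 17.1) over all controls. The pooled ratio to the controls of 1 to 3 weeks was 1.05 (0.846 to 1.31). At 1 week with 24 h rechallenge Ifi30 was at 8.71, 8.94 and 10.4 CPM, below all samples without rechallenge, and the log2 difference of -1.19 (SE 0.35) had an adjusted p of 0.092. DESeq2 called it in 0 of the comparisons in which it gave an adjusted p, and edgeR gave an unadjusted p under 0.05 in that comparison, in that of 1-week and naive cells at 24 h (1.36% of genes called) and in that of the 24 h rechallenge between 3 weeks and 1 week (0.47%).

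The lines were also compared directly. In untreated cells 2 of the 5 genes tested in the fit over both lines differed, beside 46% of 10339 genes. Ifi30 was lower in YUMM2.1 than in CT26 by 2.85 log2 units (SE 0.53, adjusted p = 4.98e-06), and H2-DMb1 was higher in YUMM2.1, with 8 counts against 0 (adjusted p = 0.0079). The difference between the lines' responses to IFNγ could not be estimated for the class II genes, because CT26 groups at 0 gave standard errors of up to 11410 log2 units, and 0 of 5 genes were called for the 24 h or the sustained response, beside 0.087% and 0.184% of genes. None of the 5 had an unadjusted p under 0.05 by edgeR, and DESeq2 gave none an adjusted p, with 0 and 3 at an unadjusted p under 0.05. For Ifi30, which had counts in both lines, the sustained response differed by 0.0089 log2 units (SE 0.40, adjusted p = 0.99998).

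Pooled over the 27 samples of each line with 1 week or more of IFNγ, H2-DMb1 stood 192 times higher in YUMM2.1 (65.3 to 932), H2-Aa 102 times (27.9 to 845) and H2-Eb1 97.0 times (26.6 to 806). The ratio was 19.4 (6.36 to 96.3) for Cd74, 18.2 (10.5 to 34.6) for H2-DMa and at least 24.5 for H2-Ab1. For Ciita it was 6.17 (3.06 to 14.1), from 65 counts against 9. Ifi30 went the other way, at 0.200 (0.162 to 0.247). The study used C57BL/6 mice as hosts for YUMM2.1 and BALB/c mice for CT26, and the processing notes name mm10 for both lines. Whether strain differences in the sequence of these genes changed their counts was not tested, and the intervals cover counting error only.

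The lines were further set against each other in a two-sided exact permutation test over 9 samples of each line at each rechallenge state, 27 tests without adjustment, whose smallest possible p is 4.11e-05. At 24 h, H2-Aa, H2-Ab1, H2-Eb1, H2-DMa, H2-DMb1 and Ifi30 reached that value, and their samples did not overlap between lines. Cd74 overlapped (exact permutation p = 0.000206), as did Ciita (0.0759). At 2 h Ciita gave an exact permutation p of 0.00671, and without rechallenge 0.453. Each test pools 3 durations, and the 9 samples share only the line and the rechallenge state.

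Genes that act before and beside Ciita were read in the same samples. Among the listed genes upstream of Ciita, Irf1 rose after 2 h and 24 h in naive cells and after 1, 2 and 3 weeks without rechallenge, in both lines. In YUMM2.1, Irf1, an activator of the Ciita promoter, rose by 4.07 log2 units after 2 h in naive cells (SE 0.21, adjusted p = 2.26e-19) and by 2.82 after 24 h (SE 0.23, adjusted p = 4.29e-13). Its response was not called different between the lines, with a difference at 24 h of 0.48 log2 units (SE 0.38, adjusted p = 0.80).

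The class I counterparts give a comparison within the same cells. Nlrc5, the class I transactivator related to CIITA, stood at 8.29 CPM (5.77 to 11.5) in naive YUMM2.1 cells after 24 h and at 7.18 CPM (5.74 to 8.86) under sustained IFNγ, where Ciita was at 0 counts and at 0.334 CPM. Tap1, a peptide transporter subunit, stood at 14.4 and 18.02 CPM, and the immunoproteasome gene Psmb9 at 83.6 and 84.1 CPM. All 5 class I genes (Nlrc5, Tap1, Psmb8, Psmb9 and B2m) were called higher in YUMM2.1 after 24 h in naive cells and in each sustained week, beside 0.886% of genes after 24 h and 0.73%, 1.12% and 0.97% in those weeks, whereas 0 of the 4 class II genes tested were called after 24 h, a contrast between gene groups that was not tested. In CT26, 4 of the 5 were called after 24 h in naive cells, where Nlrc5 had a log2 difference of 3.201 (SE 1.10, adjusted p = 0.17), and 4, 3 and 5 at 1, 2 and 3 weeks, beside 2.04% of genes after 24 h and 0.728%, 1.62% and 7.28% in those weeks. Psmb8 and Psmb9 were the 2 of these 5 whose sustained response was called larger in YUMM2.1, by 3.11 (SE 0.55, adjusted p = 0.00042) and 1.65 log2 units (SE 0.36, adjusted p = 0.014), beside 0.184% of genes.

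**Figure D4:**
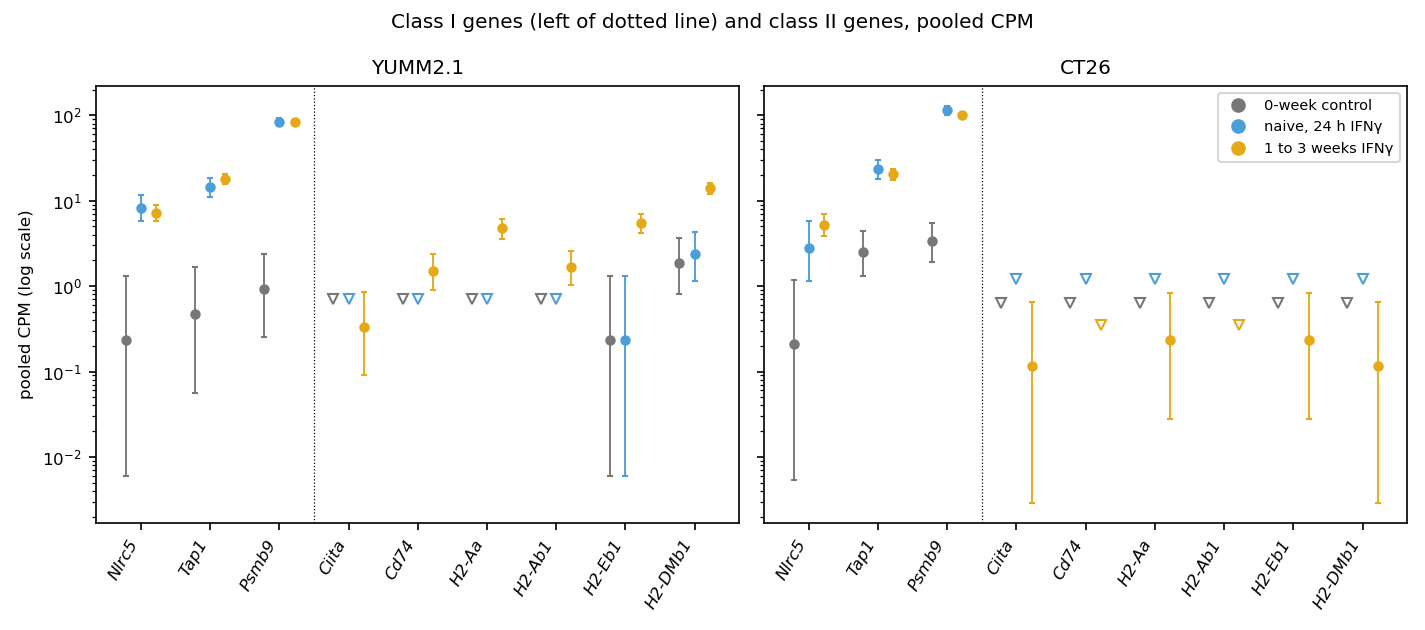
Pooled CPM on a log axis of 3 class I genes, left of the dotted line, and 6 class II pathway genes, in 0-week controls, naive cells after 24 h and cells under 1 to 3 weeks of IFNγ without rechallenge, with exact 95% Poisson intervals and open triangles at the limit where no count was seen. In YUMM2.1, Nlrc5, Tap1 and Psmb9 reach after 24 h a level like that under sustained exposure, while H2-DMb1, the highest class II gene drawn, is at its control level after 24 h. H2-DMa, with a pooled ratio to the 0-week controls of 3.73 (0.985 to 20.8) after 24 h in naive YUMM2.1 cells, is not drawn.

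Few other listed genes of the pathway were called. Of 7 genes for factors that bind class II promoters, 5 passed the filter in YUMM2.1 and 4 passed it in CT26, and 0 were called after IFNγ in naive cells or in a sustained week. Of 11 lysosomal protease and membrane genes, 10 were tested in YUMM2.1 with 0 called in those comparisons, and of 9 tested in CT26, Cst3 was lower at 2 weeks, and at 3 weeks Lamp1 was higher and Ctsl lower, beside 1.62% and 7.28% of all genes. Of the class II genes outside the 9, none passed the filter in either line. Over all 45 samples of YUMM2.1 and of CT26 respectively, H2-Ea-ps and H2-Ob had 0 counts in both, H2-Oa 0 and 2, H2-Eb2 3 and 2, and H2-DMb2 6 and 4. H2-Ob is 1 of the 7 promoters with the X box and Y box pair, with the X box letters at -90 and the Y box at -57, as H2-Eb1 and H2-DMb1 are, and it had no count. The pair of RFX core and Y box seen in H2-Aa was also held by H2-Oa (-76 and -43) and H2-Eb2 (-132 and -100), which had the few counts given above.

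With the 9 genes left out of the ranking, the pattern over the 15 group means of YUMM2.1 was closest to that of Cd74 for 4933412E12Rik (Pearson r = 0.89), H2-M3 (0.89), Ddx60 (0.88), Wfdc18 (0.88) and 2010005H15Rik (0.88) among the genes tested. Of the 9 genes themselves, 5 were closer, namely H2-DMa (0.96), H2-Ab1 (0.94), H2-DMb1 (0.93), H2-Eb1 (0.91) and H2-Aa (0.91). With a prior count of 0.5 in place of 2, AW112010 came first (0.89). These are descriptions over group means that share libraries and depth, and Cd74 itself had few counts. In CT26, with 3 counts for Cd74, no such genes were named.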

How the data were processed

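RNA of 90 samples (30 groups of 3) was measured by 3′ digital gene expression. The authors deposited raw counts per gene and sample, as whole numbers. The submitters' processing notes name Salmon 0.13.1 and mm10, and the methods name tximport. Use of molecular identifiers is not given in the sources used here, so duplicates may be counted. The study discarded some samples that it does not name, and all were kept. The 9 genes and the gene lists were chosen with earlier results of these data known. Of 53697 gene identifiers, 53668 were matched to symbols, and 0 sample columns were left unused. Some listed genes are not reported here.

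Tests used edgeR 4.0.16 in R 4.3.3 (filterByExpr with a minimum count of 10, TMM, quasi-likelihood test) on the 45 samples of a line, or on all 90 between lines, with Benjamini-Hochberg adjustment over all genes tested (9589 in YUMM2.1, 8516 in CT26, 10339 in both) at 0.05. All 9 genes are named by rule. Genes like Cd74 were ranked by Pearson correlation of mean log2 CPM (prior count 2). DESeq2 gives no adjusted p to genes that its own filter removes, and those were not counted as calls or as lost calls. Alternatives were DESeq2 1.42.0, library totals, no filter, only the compared groups, each replicate left out, no shallow samples and a replicate block. Unfiltered fits with those omissions, means over weeks, the naive contrasts at 2 h and at 1 week, the contrast between weeks and the permutation tests (SciPy 1.17.1) were added after values were seen. Replicate numbers did not pair samples (median correlation of deviations 0.0005 in YUMM2.1 and 0.006 in CT26). On counts simulated for the 3-week sustained comparison in YUMM2.1, 91% of 200 genes changed by a fold of 4 among 9245 were recovered, with 9 false calls, and 0% of the 2 with a mean count under 5. The study describes its in vitro replicates as independent, without detail for these triplicates.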

Additional observations from a re-analysis of the deposited data

How the results depend on the processing

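Of the comparisons' call counts, 135 values under alternatives stayed within 1.5 times the reported count and 14 moved. A further 258 values stayed the same, but these hold group levels and the ranking of genes like Cd74 as well as calls. Of the calls on single differences, 54 were lost and 0 reversed. Sustained exposure in YUMM2.1 gave 9 calls over 3 weeks, 3 when only the compared groups were fitted and 1 to 4 without each replicate number in turn, against 8 with DESeq2 (of 9 with an adjusted p), 9 with library totals, 11 without the filter and 9 without shallow samples. The 24 h rechallenge gave 1 call, and 0 whichever replicate number was left out. The comparison of 3 weeks with naive cells at 24 h gave 2 calls, 1 with only the compared groups and 0 to 1 without each replicate number. The untreated lines gave 2 calls, 1 with only the compared groups and 1 to 2 without each replicate number. Fewer samples enter those fits. In YUMM2.1, DESeq2 gave no adjusted p for 3-week against naive cells at 24 h, or for 3-week against 0-week controls. It gave none for the lines' responses either, so it has no value in these comparisons. Between the untreated lines it called 2 genes. With the replicate block the sustained count was again 9, the rechallenge count 1 and the naive comparison 2, and the counts of 0 and the 2 calls between untreated lines stayed. In the comparison at 24 h of 1 week with naive cells, added later, H2-DMa lost its call with the block (adjusted p = 0.059), which left 3 of 4. Most class II genes have under 20 counts a sample, so counting error limits every single value.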
